A study of Mus musculus with 8 samples.

Results

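The genes described here encode the ubiquitin-based feedback on NF-κB: the ubiquitin editor A20 with its binding partners, the deubiquitinases CYLD and OTULIN, the cellular inhibitor of apoptosis proteins (cIAPs) and the adaptors TRAF1 and TRAF2. They were chosen by symbol, and all 10 listed symbols (Tnfaip3, Tnip1, Tnip2, Tnip3, Cyld, Otulin, Birc2, Birc3, Traf1 and Traf2) were found among the 24411 gene names of the count table and passed the filter on low counts. RNA of whole aorta was sequenced from 8 mice, with 1 library per mouse. The 5 caIKK2EC mice had the genotype caIKK2(+/+) BMXCreERT2(+/-) ApoE(-/-): they carry a constitutively active IKK2, the kinase that activates NF-κB, with EGFP behind a loxP-flanked STOP cassette, and a tamoxifen-inducible Cre driven by Bmx, which the labels describe as active in arterial endothelial cells alone. The 3 Control mice were littermates of the genotype caIKK2(+/+) BMXCreERT2(-/-) ApoE(-/-), which carry the same silent transgene and lack the Cre. All 8 mice thus lacked ApoE, received tamoxifen (1 mg per 20 g of mouse) on 5 consecutive days and ate a Western-type diet for 12 weeks. The caIKK2EC mice were female and 18 (replicates 1 and 3) or 19 weeks old (replicates 2, 4 and 5), Control 1 and 2 were female and 18 weeks old, and Control 3 was male and 19 weeks old. The series describes activation at early or late disease, and which applies to these mice was not stated in the labels.

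NF-κB is held in check by enzymes that write, read and erase ubiquitin chains on its upstream signalling complexes. After a tumour necrosis factor (TNF) receptor is engaged, TRAF2 brings the ubiquitin ligases cIAP1 and cIAP2 to it, their chains recruit the linear ubiquitin ligase LUBAC, and the IKK complex docks on the result. A20, CYLD and OTULIN act against these chains. Several of these genes, among them Tnfaip3, Birc3 and Traf1, are themselves textbook targets of NF-κB. With A20, the product of Tnfaip3, the pathway thus makes its own brake. In the arterial wall A20 is known as a restraint on inflammation and atherosclerosis.

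Promoters are shown for the members in which all caIKK2EC libraries lay above all Controls, and for the other members with an NF-κB match. This transcription factor was searched for because it is what the active kinase switches on. Sequences are from RefSeq (GRCm38.p6), run 5′ to 3′ on the gene's strand from 250 bases before to 50 after a transcript start, and carry in capitals each match to the NF-κB consensus decamer on either strand.
Tnfaip3 (chr10:19015361-19015660, minus strand): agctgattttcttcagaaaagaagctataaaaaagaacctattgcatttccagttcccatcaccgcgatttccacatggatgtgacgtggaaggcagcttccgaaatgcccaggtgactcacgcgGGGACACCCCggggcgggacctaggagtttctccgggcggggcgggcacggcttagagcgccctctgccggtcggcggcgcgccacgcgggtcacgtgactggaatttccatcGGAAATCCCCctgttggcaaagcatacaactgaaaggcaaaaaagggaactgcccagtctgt
Tnip1 (chr11:54962891-54963190, minus strand): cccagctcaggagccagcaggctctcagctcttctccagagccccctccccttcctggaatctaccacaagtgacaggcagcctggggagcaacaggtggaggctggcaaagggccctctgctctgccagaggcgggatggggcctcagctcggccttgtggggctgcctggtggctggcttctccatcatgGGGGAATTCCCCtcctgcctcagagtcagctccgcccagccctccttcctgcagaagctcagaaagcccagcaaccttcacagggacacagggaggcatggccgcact
Tnip3 (chr6:65590148-65590447, plus strand): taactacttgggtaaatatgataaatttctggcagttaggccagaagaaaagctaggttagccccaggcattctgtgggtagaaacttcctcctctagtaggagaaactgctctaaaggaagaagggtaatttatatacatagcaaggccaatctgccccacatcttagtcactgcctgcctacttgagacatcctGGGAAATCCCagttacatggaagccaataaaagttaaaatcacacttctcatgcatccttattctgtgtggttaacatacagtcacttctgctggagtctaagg
Cyld (chr8:88696778-88697077, plus strand): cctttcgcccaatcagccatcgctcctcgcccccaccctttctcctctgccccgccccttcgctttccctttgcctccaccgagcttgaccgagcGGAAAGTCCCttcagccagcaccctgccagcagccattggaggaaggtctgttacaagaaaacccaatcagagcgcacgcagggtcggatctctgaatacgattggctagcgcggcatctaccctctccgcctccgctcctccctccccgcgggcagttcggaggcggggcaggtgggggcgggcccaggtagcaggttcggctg
Birc3 (chr9:7873121-7873420, minus strand): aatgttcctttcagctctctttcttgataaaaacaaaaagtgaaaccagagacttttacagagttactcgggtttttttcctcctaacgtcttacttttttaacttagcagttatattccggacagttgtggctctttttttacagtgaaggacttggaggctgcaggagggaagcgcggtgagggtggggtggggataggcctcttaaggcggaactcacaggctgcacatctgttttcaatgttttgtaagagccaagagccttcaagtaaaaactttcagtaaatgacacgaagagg
Traf1 (chr2:34961723-34962022, minus strand): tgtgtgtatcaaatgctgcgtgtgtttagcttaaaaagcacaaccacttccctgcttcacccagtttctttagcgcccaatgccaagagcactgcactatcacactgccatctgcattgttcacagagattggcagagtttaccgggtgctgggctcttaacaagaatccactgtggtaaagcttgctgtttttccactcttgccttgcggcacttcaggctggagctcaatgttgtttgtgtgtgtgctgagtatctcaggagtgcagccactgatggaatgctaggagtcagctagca

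All 10 members had an entry, with 12 windows in all since Tnfaip3 and Birc2 have 2 starts. The decamer occurred in windows of 4 members (Tnfaip3, Tnip1, Tnip3 and Cyld), and in 5.14% of the 27025 genes with a RefSeq promoter. These were 2 of the 4 members with all caIKK2EC libraries above all Controls, and 2 of the 6 others. Tnfaip3 had 2 matches in the window shown, GGGACACCCC beginning 125 bases and GGAAATCCCC beginning 12 bases before the start, and 0 in its other window. The 3 matches of Tnip1 overlap within 12 bases (GGGGAATTCC, GGGAATTCCC and GGAATTCCCC), of which the outermost begins 58 bases before the start. Tnip3 held GGGAAATCCC, beginning 54 bases before its start, and Cyld held GGAAAGTCCC, beginning 155 bases before. The windows of Birc3, Traf1, Birc2, Traf2, Tnip2 and Otulin did not contain these letters. The AP-1 heptamer TGANTCA, also searched on both strands, occurred in 1 member, Tnfaip3, beginning 136 bases before the start and not overlapping the decamers, and in 8.97% of all genes with a promoter. The paralogue pairs differed in base composition: the Birc3 window had 43.0% G and C and 7 CpG dinucleotides, whereas the upstream window of Birc2 had 67.0% and 34. Traf1 likewise had 48.7% and 4 CpG, and Traf2 64.0% and 28, where the median over all promoters was 52.7% and 7. The RefSeq start of Tnip3 lies inside the longer gene of the GENCODE annotation. These matches describe the letters in a window and are not evidence of binding.

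Libraries held 23461655 to 30808502 counts. Levels are given as CPM, counts scaled to library size with the trimmed mean of M-values (TMM), and differences as log2 fold changes of caIKK2EC over Control. Smooth muscle markers, which define the wall of an aorta, summed to 9642 to 20322 CPM in caIKK2EC and 17721 to 35725 CPM in Control libraries, and all 7 endothelial markers were detected in every library. Control 3 stood apart from the other Controls: its 8 macrophage markers summed to 1864 CPM, against 6328 and 6603 CPM in Control 1 and 2 and 7850 to 11275 CPM in caIKK2EC, and it held the highest smooth muscle sum. The column names place caIKK2EC 1 and the 3 Controls in sequencing lane 7 and caIKK2EC 2 to 5 in lane 8, so that lane and genotype are largely confounded. Lane 8 held no Control, so a fit with lane as a covariate sets caIKK2EC 1 alone against the 3 Controls. caIKK2EC 1 also carried 763 CPM of skeletal and heart muscle markers, against 38.6 to 71.2 CPM in the other caIKK2EC libraries, and Control 1 carried 1475 CPM.

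At issue is how the RNA of these feedback genes in the whole vessel differed between the genotypes. Tnfaip3, Birc3 and Traf1 were close to 2-fold higher in caIKK2EC aortas and Tnip1 was 1.46-fold higher, and for these 4 all caIKK2EC libraries exceeded all Controls. The other 6 members overlapped between the groups, with Birc2, Tnip2, Otulin, Traf2 and Tnip3 higher on average and Cyld lower. Among all 14679 genes tested, 7.01% had all caIKK2EC libraries above all Controls. By edgeR's quasi-likelihood test, adjusted over all genes by the Benjamini-Hochberg method, 0 of the 10 members and 0 of all genes (0%) passed 0.05. At an unadjusted p under 0.05, 5 members were higher (Tnfaip3, Tnip1, Birc2, Birc3 and Traf1), where 9.66% of all genes were. DESeq2 called 4 members higher at an adjusted p under 0.05 (Tnfaip3, Tnip1, Birc3 and Traf1), against 4.55% of the genes it tested, and the authors' deposited table calls the same 4. In the 8 DESeq2 runs that each left out 1 library, the share of genes called higher was 4.36%, 7.24%, 2.4%, 2.34% and 2.28% without caIKK2EC 1 to 5 and 5.23%, 4.05% and 2.49% without Control 1 to 3. The median log2 fold change over the 10 members was 0.42, beside -0.02 over all genes tested, and 9 members had a value above 0, as did 6955 of the 14679 genes. In bulk RNA, more cells of a type and more RNA per cell cannot be told apart, and macrophages also express NF-κB feedback genes. Of 8 macrophage markers, 7 likewise had all caIKK2EC libraries above all Controls, and their part in the result was not tested.

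**Figure D1:**
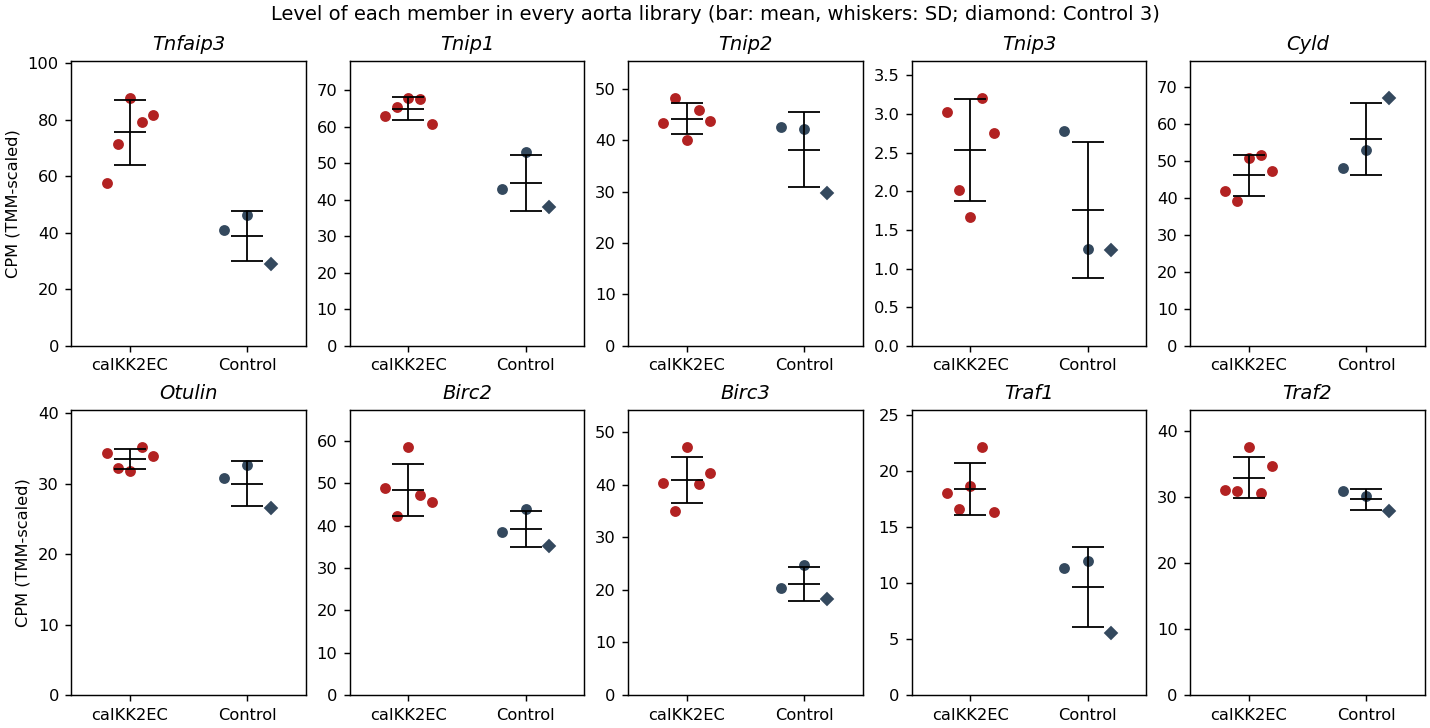
TMM-scaled CPM of each member in the 5 caIKK2EC (left in each panel) and 3 Control libraries, with the mean (bar) and SD (whiskers); the diamond is Control 3. In Tnfaip3, Tnip1, Birc3 and Traf1 the lowest caIKK2EC library lies above the highest Control, and Control 3 is lowest in every panel except that of Cyld.

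A20 is the centre of the feedback: it removes and adds ubiquitin chains on RIPK1 and other signalling proteins and so ends the NF-κB response. Its gene Tnfaip3 (chromosome 10, 19000910 to 19015657, minus strand, GRCm38, protein-coding) was at 57.6, 71.5, 87.7, 79.1 and 81.9 CPM in caIKK2EC 1 to 5, against 41.1, 46.5 and 29.1 CPM in Control 1 to 3. The caIKK2EC library of lane 7 was the lowest of its group and still lay above all Controls. The means were 75.6 ± 11.6 CPM in caIKK2EC (SD, n = 5) and 38.9 ± 8.90 CPM in Control (SD, n = 3). The log2 fold change was 0.96 (SE 0.18), at an adjusted p of 0.107 by edgeR. The exact two-sided permutation p was 0.0357, the smallest that 5 against 3 allows. Every gene whose groups do not overlap gets this p. Of the 14679 genes tested, 1029 were apart with caIKK2EC higher and 473 with caIKK2EC lower. DESeq2 gave an adjusted p of 0.000319, and 2.07e-05 to 0.00540 when each library was left out in turn. With lane as a covariate, where caIKK2EC 1 alone is set against the Controls, the edgeR log2 fold change was 0.57 (SE 0.24).

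The ABIN proteins bind A20 and ubiquitin chains and carry A20 to its substrates. Tnip1, the gene of ABIN-1 (chromosome 11, 54910785 to 54962917, minus strand), was at 63.1, 65.5, 67.8, 67.7 and 60.8 CPM in caIKK2EC 1 to 5, against 42.9, 53.0 and 37.9 CPM in Control 1 to 3. The caIKK2EC libraries lay close together, with a coefficient of variation of 4.66%, against 17.2% among the Controls. The log2 fold change was 0.54 (SE 0.12, with adjusted p = 0.109 by edgeR, exact permutation p = 0.0357). DESeq2 called Tnip1 at an adjusted p of 0.00470, with 6.69e-05 to 0.0395 when libraries were left out. With lane as a covariate, resting on caIKK2EC 1 alone, the edgeR log2 fold change was 0.50 (SE 0.19). Tnip2, which encodes ABIN-2 (chromosome 5, 34496087 to 34513991, minus strand), was at 43.3, 48.2, 40.0, 45.8 and 43.7 CPM in caIKK2EC, against 42.6, 42.2 and 29.8 CPM in Control. Control 1 and 2 fell within the caIKK2EC range and Control 3 below it. Its log2 fold change of 0.21 (SE 0.14, with adjusted p = 0.466 by edgeR) was 0.06 without Control 3. Tnip3, the gene of ABIN-3 (chromosome 6, 65525313 to 65634040, plus strand), was the least abundant member, with 27 to 90 counts per library. It was at 3.03, 2.02, 1.67, 3.20 and 2.75 CPM in caIKK2EC, against 2.78, 1.26 and 1.24 CPM in Control. Control 1 reached the level of the caIKK2EC libraries, and 2 of the 5 caIKK2EC libraries lay above it. Its log2 fold change of 0.52 (SE 0.37, with adjusted p = 0.508 by edgeR) ranged from 0.33 without Control 3 to 1.04 without Control 1, so that it rested on single Controls.

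CYLD and OTULIN are the other brakes of the set. CYLD removes lysine-63-linked and linear chains and is a tumour suppressor, and OTULIN cleaves linear chains exclusively. Cyld (chromosome 8, 88697028 to 88751945, plus strand) was at 41.8, 39.1, 50.9, 51.7 and 47.4 CPM in caIKK2EC, against 48.1, 53.0 and 67.0 CPM in Control. It was the 1 member with a lower mean in caIKK2EC, at 46.2 ± 5.56 CPM against 56.03 ± 9.83 CPM in Control (SD, n = 5 and 3), and 3 of the 5 caIKK2EC libraries lay below every Control. The log2 fold change of -0.28 (SE 0.14) did not pass (adjusted p = 0.346 by edgeR, DESeq2 adjusted p = 0.362), and without Control 3, in which Cyld was highest, it was -0.13. Otulin (chromosome 15, 27542635 to 27630693, minus strand) was at 34.3, 32.3, 31.8, 35.2 and 33.9 CPM in caIKK2EC, against 30.7, 32.7 and 26.6 CPM in Control. Its groups overlapped, with a log2 fold change of 0.16 (SE 0.11, with adjusted p = 0.484 by edgeR) that was 0.08 without Control 3.

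The cIAP genes Birc2 and Birc3 encode close relatives, the ligases cIAP1 and cIAP2, and lie side by side on chromosome 9, separated by 11634 bases. Birc3 (7848699 to 7873186, minus strand) was at 40.4, 35.0, 47.1, 40.1 and 42.2 CPM in caIKK2EC 1 to 5, against 20.4, 24.7 and 18.3 CPM in Control 1 to 3. Even the lowest caIKK2EC library stood well clear of the highest Control. Birc3 had the third smallest p of all 14679 genes in the edgeR fit, at an adjusted p of 0.107. Its log2 fold change was 0.95 (SE 0.14), and the exact permutation p 0.0357. DESeq2 called it at an adjusted p of 2.36e-06, and in every run that left out 1 library (1.89e-08 to 0.000322). It was also the 1 member that DESeq2 called with lane as a covariate (adjusted p = 0.0288, against 0.748% of genes called higher in that fit), and its log2 fold change there was 0.93 (SE 0.21). Birc2 (7818227 to 7837064, minus strand) was at 49.0, 42.2, 58.5, 47.3 and 45.4 CPM in caIKK2EC, against 38.5, 43.9 and 35.3 CPM in Control. Of its caIKK2EC libraries 4 lay above every Control and caIKK2EC 2 below Control 2. The log2 fold change was 0.31 (SE 0.13, with adjusted p = 0.273 by edgeR, DESeq2 adjusted p = 0.234).

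Because both paralogues were read in the same library, their ratio does not depend on library scaling. There were 0.825, 0.828, 0.806, 0.847 and 0.930 reads of Birc3 per read of Birc2 in caIKK2EC 1 to 5, against 0.531, 0.562 and 0.519 in Control 1 to 3. The Controls, Control 3 included, lay within a narrow band, and all caIKK2EC libraries lay above it. The difference of the mean log2 ratios was 0.66, with the ratio higher in 5 of 5 caIKK2EC libraries. The difference was 0.63 without Control 3 and 0.62 within lane 7, where caIKK2EC 1 is the lone caIKK2EC library. The exact two-sided permutation p was 0.0357 (adjusted p = 0.0357 over the 2 pairs tested), the smallest that 5 against 3 allows. Any ratio whose groups do not overlap gives this p, and adjusting 2 such values leaves it unchanged. The ratio uses the Birc3 counts compared above, so it is not independent of the Birc3 difference.

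TRAF1 and TRAF2 are paired adaptors: TRAF2 carries a RING domain and recruits the cIAPs, while TRAF1 lacks the RING and joins TRAF2 in mixed complexes. Traf1 (chromosome 2, 34941750 to 34961772, minus strand) was at 18.1, 16.6, 18.7, 22.1 and 16.4 CPM in caIKK2EC 1 to 5, against 11.4, 11.9 and 5.51 CPM in Control 1 to 3. The groups did not overlap, and Control 3 lay well below the other Controls. The log2 fold change was 0.93 (SE 0.24, with adjusted p = 0.134 by edgeR, exact permutation p = 0.0357), and 0.66 (SE 0.15) without Control 3. DESeq2 called it at an adjusted p of 0.00945, in 7 of 8 runs that left out 1 library, and not without caIKK2EC 4 (adjusted p = 0.0546). With lane as a covariate, resting on caIKK2EC 1 alone, the edgeR log2 fold change was 0.91 (SE 0.37). Traf2 (chromosome 2, 25517982 to 25546940, minus strand) was at 31.003, 30.9, 37.5, 30.5 and 34.6 CPM in caIKK2EC, against 30.9, 30.1 and 27.8 CPM in Control. The values of 3 caIKK2EC libraries were close to those of Control 1 and 2, and the log2 fold change was 0.15 (SE 0.11, with adjusted p = 0.523 by edgeR). There were 0.583, 0.538, 0.498, 0.724 and 0.473 reads of Traf1 per read of Traf2 in caIKK2EC 1 to 5, against 0.369, 0.396 and 0.198 in Control 1 to 3. The groups did not overlap, and the spread was wider than for the cIAP pair. The difference of the mean log2 ratios was 0.86, with the ratio higher in 5 of 5 caIKK2EC libraries. It was 0.54 without Control 3 and 0.93 within lane 7. The exact two-sided permutation p was 0.0357 (adjusted p = 0.0357 over the 2 pairs), again the smallest possible. As for the cIAP pair, groups that do not overlap fix this p, and the ratio is not independent of the Traf1 difference.

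**Figure D2:**
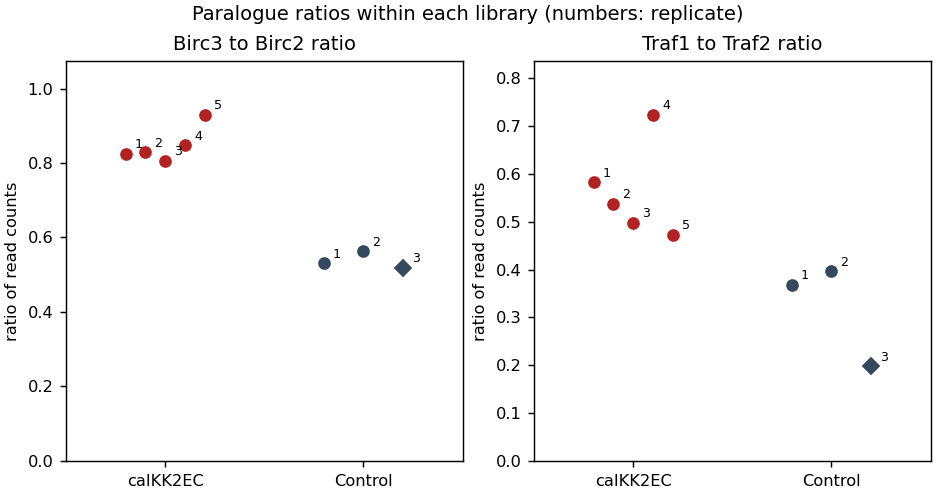
Reads of Birc3 per read of Birc2 (left) and of Traf1 per read of Traf2 (right) in each library, numbered by replicate, with caIKK2EC left of Control and Control 3 as a diamond. All caIKK2EC ratios (0.806 to 0.930 and 0.473 to 0.724) lie above all Control ratios (0.519 to 0.562 and 0.198 to 0.396).

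Per kilobase of exon, a rough scale for comparing genes with each other, the level of Otulin was the highest of the set. It was at 19.8 ± 0.838 CPM per kb in caIKK2EC and 17.7 ± 1.86 CPM per kb in Control (SD, n = 5 and 3). In caIKK2EC aortas Tnip1 (18.4 CPM per kb) and Tnip2 (16.5) came next, followed by Birc2 (10.6), Tnfaip3 (10.5), Birc3 (8.18), Traf2 (6.45), Cyld (3.67), Traf1 (2.08) and Tnip3 (0.232). Neighbours in this order overlapped in their ranges from Otulin to Tnip2 and from Birc2 to Traf2, while Tnip2 lay above Birc2, Traf2 above Cyld, Cyld above Traf1 and Traf1 above Tnip3 in every library. In Control aortas the order was Otulin, Tnip2 (14.2), Tnip1 (12.6), Birc2 (8.56), Traf2 (5.81), Tnfaip3 (5.38), Cyld (4.46), Birc3 (4.22), Traf1 (1.09) and Tnip3 (0.161), with overlapping ranges from Otulin to Tnip1 and from Traf2 to Birc3. The level of Birc2 per kb was above that of Birc3 in each of the 8 libraries, at 9.22 to 12.8 against 6.98 to 9.41 CPM per kb in caIKK2EC and 7.70 to 9.58 against 3.65 to 4.92 CPM per kb in Control. Traf1 was less abundant per kb than Traf2 in both groups. The exon lengths come from the GENCODE annotation, and whether the authors counted over the same exons was not stated in the labels. They are merged over all annotated transcripts of a gene, from 1693 bases for Otulin to 12576 for Cyld. The order depends on these lengths, and which transcripts were expressed was not tested.

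**Figure D3:**
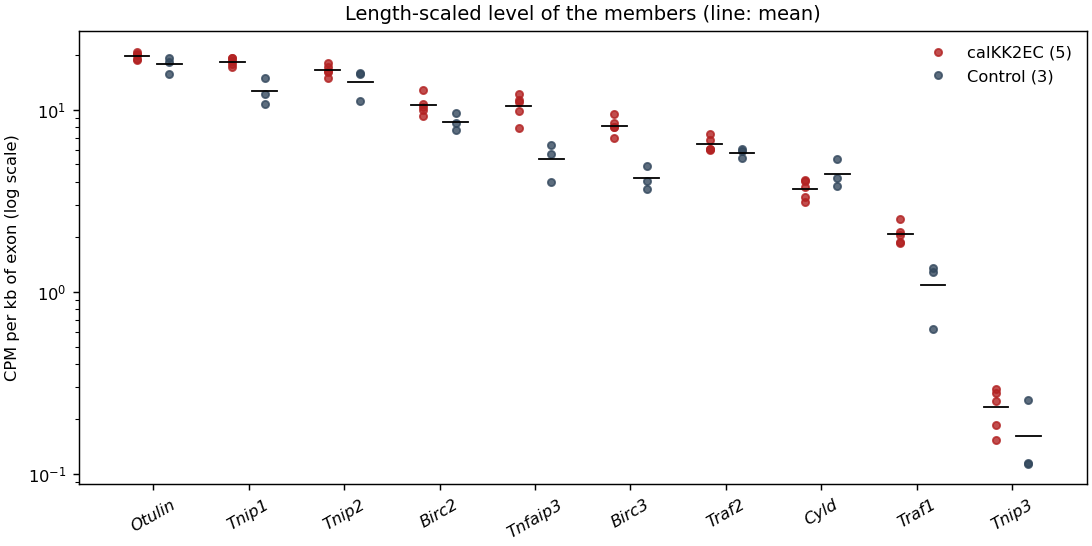
Length-scaled level of each member (CPM per kb of merged exon, log scale) in the 5 caIKK2EC (left of each pair) and 3 Control libraries, with lines at the means. Otulin, Tnip1 and Tnip2 are the highest and Tnip3 is the lowest, in both groups.

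The members' differences were larger with Control 3 than without it. Control 3 held the lowest level of 9 of the 10 members among all 8 libraries and the highest of Cyld. Relative to the Control mean, the median member lay 0.32 to 0.46 higher on the log2 scale in the caIKK2EC libraries, against 0.05 in Control 1, 0.16 in Control 2 and -0.21 in Control 3. Without Control 3 the edgeR log2 fold changes were 0.79 for Tnfaip3, 0.86 for Birc3, 0.66 for Traf1 and 0.44 for Tnip1, and DESeq2 still called these 4 higher (adjusted p of 5.47e-05 to 0.0322), against 2.49% of genes. Sex, the age of the Controls and the low macrophage sum of Control 3 coincide in this 1 library and cannot be told apart. With age as a covariate, edgeR itself called the same 4 members higher, against 2.77% of genes. Their adjusted p ran from 0.0210 for Birc3 to 0.0413 for Traf1. Without caIKK2EC 2 edgeR called Tnfaip3 and Birc3, against 1.57%. With sex as a covariate it called 0 members and 0 genes (adjusted p of 0.189 for Birc3 and 0.216 for Tnfaip3). As Control 3 is the lone male, that fit nearly repeats the one without Control 3. The log2 fold changes were 0.86 for Birc3 and 0.79 for Tnfaip3 in both. With lane as its covariate the group difference rests on caIKK2EC 1 alone, so no count is drawn from that fit. Over 17 edgeR alternatives the adjusted p ranged from 0.0210 to 0.462 for Birc3 and from 0.0269 to 0.462 for Tnfaip3.

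**Figure D4:**
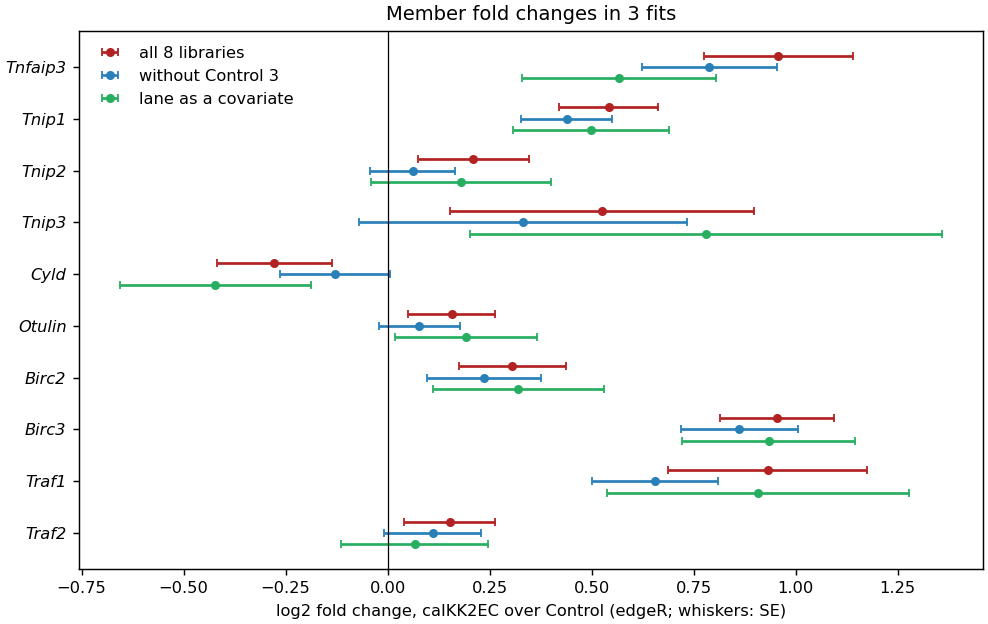
Log2 fold change of caIKK2EC over Control for each member in 3 edgeR fits, with SE as whiskers: all 8 libraries, without Control 3, and with sequencing lane as a covariate. Birc3 is at 0.86 or more in each, and Tnfaip3 is at 0.57 with lane. In the fit with lane the difference rests on caIKK2EC 1 alone against the 3 Controls. Tnip2, Tnip3, Cyld, Otulin and Traf2 lie within about 2 SE of 0 in all 3.

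Of 33 further genes of the pathway in 5 lists, edgeR called 0 and DESeq2 called 2 higher and 0 lower. Over all 14340 genes it tested, DESeq2 called 4.55% higher and 217 genes lower. The groups did not overlap in 4 genes, all higher in caIKK2EC (Tnfrsf1b, Zc3h12a, Map3k7 and Tradd, the last of these named after its values were seen), where 7.01% of all genes were apart in that direction. The median log2 fold change was 0.05, beside -0.02 over all genes tested. The 2 genes called by DESeq2 were Tnfrsf1b and Zc3h12a. Tnfrsf1b, which encodes TNF receptor 2, the receptor that binds TRAF2 directly, was at 244 ± 37.7 CPM in caIKK2EC and 147 ± 20.5 CPM in Control (SD, n = 5 and 3), with a log2 fold change of 0.73 (SE 0.16, with adjusted p = 0.109 by edgeR, DESeq2 adjusted p = 0.00150). Zc3h12a, the gene of the RNase regnase-1, which degrades inflammatory mRNAs, was at 24.4 ± 2.63 CPM in caIKK2EC and 17.8 ± 1.26 CPM in Control (log2 fold change 0.45, SE 0.13, adjusted p = 0.144 by edgeR, DESeq2 adjusted p = 0.0368).

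In the TNF receptor complex, 12 genes had a median log2 fold change of 0.17, and 3 had all caIKK2EC libraries above all Controls, beside the 7.01% of all genes. Ripk1, the kinase on which ubiquitin chains are built, had a log2 fold change of 0.43 (SE 0.16, with adjusted p = 0.213 by edgeR). Map3k7, the gene of the kinase TAK1, had 0.26 (SE 0.11, with adjusted p = 0.267 by edgeR). LUBAC and the CYLD adaptor SPATA2 had log2 fold changes of -0.05 for Rbck1, -0.03 for Rnf31 and 0.14 for Spata2, each with overlapping groups. Partners of A20 overlapped as well, at -0.28 for Rnf11, 0.24 for Tax1bp1 and 0.10 for the ligase gene Itch. Of the 7 genes for other TRAFs and the control of NIK, the kinase of the non-canonical NF-κB pathway that the TRAF and cIAP ligase complex degrades, 0 had all caIKK2EC libraries above all Controls, as 7.01% of all genes did. NIK's own gene Map3k14 was at 0.47 (SE 0.18, with adjusted p = 0.234 by edgeR), Tank at 0.39 (SE 0.16, with adjusted p = 0.261 by edgeR) and Traf3 at 0.29 (SE 0.19, with adjusted p = 0.458 by edgeR). Among other ubiquitin editors and readers the median was -0.02, with N4bp1 at 0.30 and the deubiquitinase gene Otud7b at -0.29, neither called.

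**Figure D5:**
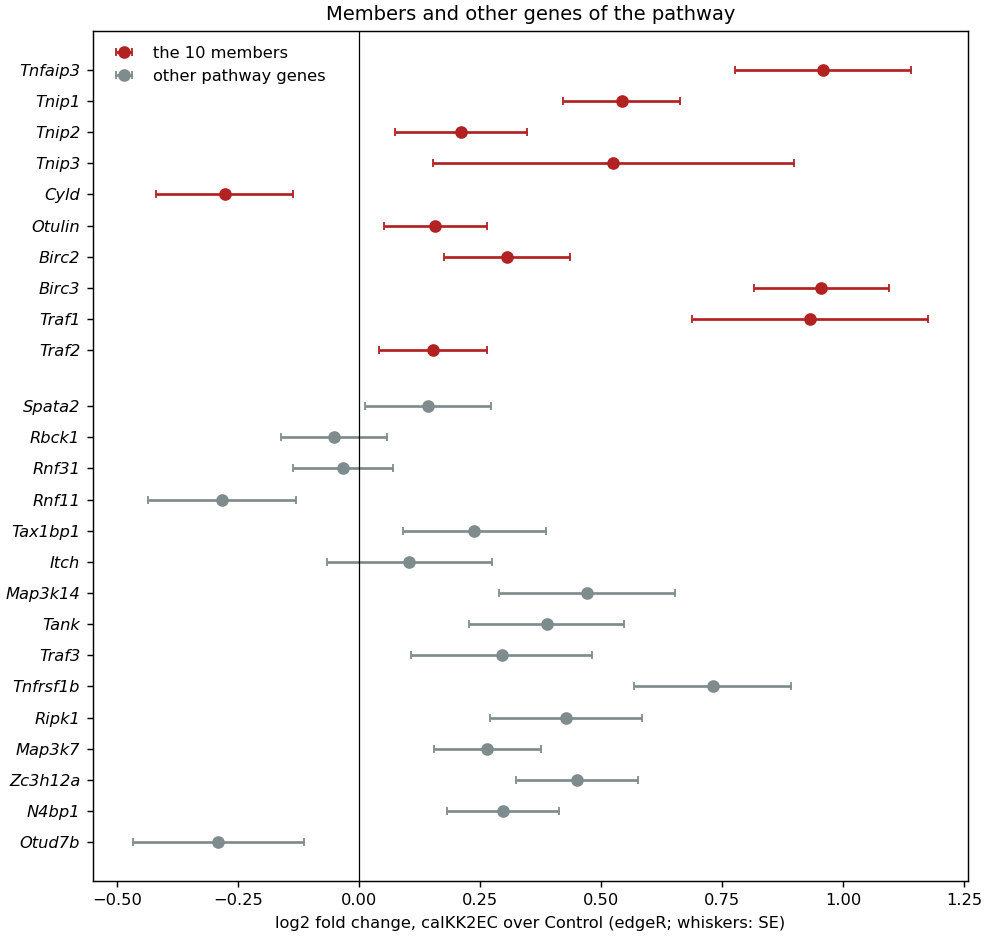
Log2 fold changes (caIKK2EC over Control, edgeR, whiskers SE) for the 10 members (upper block) and the 15 named genes of the 5 pathway lists (lower block). Tnfaip3, Birc3 and Traf1 stand at 0.93 to 0.96 and Tnfrsf1b at 0.73, while Rbck1 and Rnf31 lie at -0.05 and -0.03.

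Of the 12 marker lists of other cell types, the macrophage list was the 1 with more than 1 marker called. edgeR called 0 markers in every list. DESeq2, which called 4.55% of all genes higher, called 6 of 8 macrophage markers higher, with a median log2 fold change of 0.91 over the 8 markers, and 1 marker each of T cells (Cd4, of 5), dendritic cells (Itgax, of 5), neutrophils (Csf3r, of 3 measured), endothelium (Vwf, of 7) and fibroblasts (Lum, of 5). Smooth muscle markers had a median of -0.75, with 1 of 6, Myh11, called lower, where DESeq2 called 217 of 14340 genes lower. These single markers are named after their values were seen. B cell, arterial endothelial, adipocyte, skeletal and heart muscle, and neuronal and Schwann cell lists had 0 calls. Endothelial markers of any vessel type summed to 2432 to 3074 CPM in caIKK2EC and 1467 to 2929 CPM in Control libraries with a median log2 fold change of 0.16. The 4 arterial endothelial markers (Bmx, Gja5, Sox17 and Efnb2), nearest to the cells in which the Cre is active, summed to 235 to 313 CPM in caIKK2EC and 191 to 298 CPM in Control libraries, with a median of 0.10. In lane 7 the macrophage sum was 8912 CPM in caIKK2EC 1, against 6328, 6603 and 1864 CPM in Control 1 to 3. The part of each of these in the levels of the members was not tested.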

How the data were processed

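Poly(A) RNA of 8 aortas was sequenced from directional libraries as single reads of 50 nt, per the labels' protocols. The authors deposited raw counts per gene symbol, and a comparison table with log2 fold changes, their standard errors and p-values. FastQC 0.11.5, STAR 2.7.0e and DESeq2 1.22.2 with build GRCm38 (mm10) are named in the submitters' processing notes. The counting program, the annotation and the strand setting were not stated in the labels or headers. No annotated exon of another gene overlaps those of a member. Columns of counts matched the samples by the identifier in their names, and 27 gene names had been turned into dates and stayed in the totals.

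The main test was edgeR 4.0.16 (R 4.3.3, limma 3.58.1): TMM, filterByExpr by group (14679 genes), robust quasi-likelihood with group as the only term, Benjamini-Hochberg over all genes. DESeq2 1.42.0, on genes with a total of at least 10 counts as in the authors' table, was an alternative. Both were tested on simulated counts with known changes, in which a larger share of the DESeq2 calls than of the edgeR calls was false. Groups come from the sample titles, and the exact tests used all 56 splits of 5 and 3, on log2(CPM + 0.5) for single genes and on log2 ratios of counts for paralogues. Annotation is GENCODE M21 (GRCm38).

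Members and lists were chosen with earlier results of these data known. Named were all members, up to 3 genes of each list with the smallest p, and 3 genes with the profile nearest to Tnfaip3 and to Birc3. The alternatives were other normalizations, filters, covariates, a replicate block and leaving out libraries. DESeq2 with lane or without single libraries was chosen after seeing the data.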

Additional observations from a re-analysis of the deposited data

Results flagged for a closer look

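Of 39 sets of 5 caIKK2EC values checked for a library far from its group, 4 were marked, where chance marks about 1 in 20 sets, and none was a member or a paralogue ratio. Tax1bp1 was at 183 CPM in caIKK2EC 2, below 200 to 206 CPM in the other caIKK2EC libraries. The summed level of B cell markers was 10.2 CPM in caIKK2EC 2, above 2.74 to 4.82 CPM in the others. In caIKK2EC 1, adipocyte markers summed to 4818 CPM, above 531 to 1728 CPM, and skeletal and heart muscle markers to 763 CPM, above 38.6 to 71.2 CPM. caIKK2EC 1 is the library on which the comparison within lane 7 and the fits with lane as a covariate rest.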

How the results depend on the processing

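All 270 member values under 27 other settings kept their direction, and 42 of them passed 0.05. Most of these passes came from DESeq2, which called 4.55% of genes higher with all libraries. In edgeR they were 4 with age as a covariate (2.77% of genes called higher) and 2 without caIKK2EC 2 (1.57%). The count of members called, 0 in edgeR, was 4 with DESeq2 (869 genes called) and 4 with age as a covariate (661 genes). With sex as a covariate in edgeR, a fit that nearly repeats leaving out Control 3, the count stayed at 0, with 0 genes. When a library was left out of edgeR the count was 0 to 2, the 2 arising without caIKK2EC 2 (0 to 359 genes). Leaving libraries out of DESeq2 gave 3 to 4 members, with 1026, 1782, 418, 385 and 392 genes without caIKK2EC 1 to 5 and 1133, 816 and 389 without Control 1 to 3, and lane as its covariate 1 member and 255 genes. The median log2 fold change of the members, 0.42, was 0.28 with sex as a covariate and 0.28 to 0.44 with a library left out, the lowest without Control 3. Pathway list calls numbered 2 with DESeq2 and 0 to 1 with a library left out, and marker list calls 12 and 0 to 5. The group differences of the mean log2 paralogue ratios stayed at 0.62 to 0.69 (Birc3 to Birc2) and 0.54 to 1.04 (Traf1 to Traf2) without single libraries. The exact p cannot fall under 0.0571 or 0.0952 there. In the replicate block over libraries numbered 1 to 3, 0 members and 0 genes were called and the median was 0.39. Same-numbered libraries deviated together with correlations of 0.33, 0.10 and 0.10, each library's best match, but not all over 0.1, so the numbers were not taken as pairs. Counts per member were 27 to 2532, and precision is least for Tnip3.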

Other observations

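The profiles nearest to Birc3 over the 8 libraries, by the root mean square difference of mean-centred log2 CPM among 12599 genes, were those of Cd68, a lysosomal protein of macrophages (0.111), Adap2 (0.111) and Ikzf1, a transcription factor of blood cells (0.111), where the median gene lay at 0.539. Those nearest to Tnfaip3 were Npl (0.123), Socs3, a feedback inhibitor of cytokine signalling (0.125), and Stx11 (0.125), with a median of 0.573. Cd68 was at 651 to 744 CPM in caIKK2EC and 304 to 474 CPM in Control, and Socs3 at 100.1 to 148 CPM in caIKK2EC and 60.5 to 87.6 CPM in Control. Among the members, Birc3 was nearest to Tnfaip3 (0.171) and Cyld farthest (0.676). These distances describe the same libraries that separate the genotypes, and carry no test.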
